A study of Equus asinus with 6 samples.

Results

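The genes described are those of the potassium, sodium, calcium and chloride channels. They were chosen by symbol, as every gene of the deposited count table whose name begins with KCN, SCN followed by a digit, CACN or CLCN, with KCNJ8 and CACNA1S left out. There were 130 of these among the 20873 genes of the table: 88 potassium, 22 calcium, 13 sodium and 7 chloride channel genes, pore-forming and auxiliary subunits together. The RNA was that of a back muscle, longissimus dorsi, taken at slaughter from Guangling donkeys (a Chinese breed of Equus asinus) at an age of 24 months and frozen. In 3 libraries the muscle had a high intramuscular fat (IMF) content and in 3 a low one, and IMF is the fat held between and within the fibres of a muscle. Neither group carried a treatment or an engineered allele according to the labels, and no measured fat content is given in the sources used here. Whether each library is a separate animal is not stated in the labels, so the p-values cover only library-to-library spread, which may be technical.

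A muscle fibre is excited when sodium channels open at the motor endplate and along the surface and transverse tubules. Calcium channels in the tubules then sense the voltage and open the release channels of the sarcoplasmic reticulum, and potassium and chloride channels return the membrane to rest. In skeletal muscle the resting conductance is unusual in being carried mainly by chloride, and potassium channels opened by falling ATP or rising calcium tie excitability to metabolism. Vessels, nerve, fibroblasts, fat cells and immune cells within the muscle carry channel sets of their own. In whole muscle, fewer cells of a type and less RNA per cell cannot be told apart.

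The libraries held 39052998 to 47494157 assigned reads, of which 0.352% to 0.450% fell on the channel genes, and 101 to 117 of these genes had reads in a library. A count of 0 allows up to 3 reads, which is 0.0632 to 0.0768 CPM (count scaled to a common library total), for counting error only. The labelled tissue was matched by its markers, since 11 of 11 slow fibre genes and 9 of 11 fast fibre genes were in the table and tested, with summed levels of 30190 to 67970 and 14292 to 65561 FPKM. High IMF replicate 1 stood apart. The level of the fast fibre list (the median over its genes of log2 level minus the gene's own mean) was -1.94 there and 0.04 to 0.87 in the other 5 libraries, and that of the slow fibre list was 0.75 there and -0.61 to 0.43 in the others. In the same library the list of Schwann cell and nerve genes was at -1.80, with S100B at 0 reads, and the macrophage list was at 1.77. Low IMF replicates 2 and 3 were nearly alike, with a chi-square per degree of freedom of 7.90 between their counts, where the other 14 pairs gave 123 to 596. They still differed by more than sampling noise and were kept as 2 samples. The fat cell list did not order the libraries by their labels: it was highest in high IMF replicate 2 (2.81) and lowest in low IMF replicate 1 (-2.62), and high IMF replicate 3 (-0.56) lay below low IMF replicates 2 (0.12) and 3 (-0.06).

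Levels are compared between genes only in the authors' deposited FPKM, which scales a count by gene length and library total. A small number of genes made up most of the channel transcripts. The mean over the 6 libraries was at least 10 FPKM for 11 of the 130 genes, between 1 and 10 for 27 and under 1 for 92. The 9 most abundant genes held 74.5% to 86.4% of the summed channel FPKM in a library, and the first 15 held 85.8% to 94.0%. Sodium channel genes held on average 42.7%, potassium channel genes 26.3%, calcium channel genes 24.0% and chloride channel genes 6.98%.

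Auxiliary subunits were prominent among the abundant genes. SCN4B, a sodium channel beta subunit, had 159 ± 48.0 FPKM (mean ± SD over 6 libraries) and CACNG1, the gamma subunit of the muscle calcium channel, 122 ± 33.2. KCNJ11, the pore of the ATP-sensitive potassium channel, had 99.3 ± 30.9 FPKM and CACNB1, the beta subunit of the muscle calcium channel, 69.9 ± 24.0. The library ranges of these genes overlapped from each to the next, with SCN4B at 92.9 to 242, CACNG1 at 65.2 to 152, KCNJ11 at 47.6 to 133 and CACNB1 at 51.1 to 103 FPKM. SCN4A, the sodium channel pore of adult skeletal muscle, followed at 52.4 ± 8.27 FPKM. KCNJ12, a strong inward rectifier, had 51.8 ± 7.66, CLCN1, the chloride channel that sets the resting conductance, 47.8 ± 9.13, and KCNA7, a delayed rectifier of muscle and heart, 41.4 ± 11. These 4 could not be ordered beyond their spread. CACNG6, another calcium channel gamma subunit, had 33.0 ± 9.44 and CACNA2D1, the alpha2delta subunit, 28.6 ± 4.74. CACNA1S, the pore of the muscle calcium channel, is not counted here, and stood at 137 ± 14.1 FPKM.

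**Figure D1:**
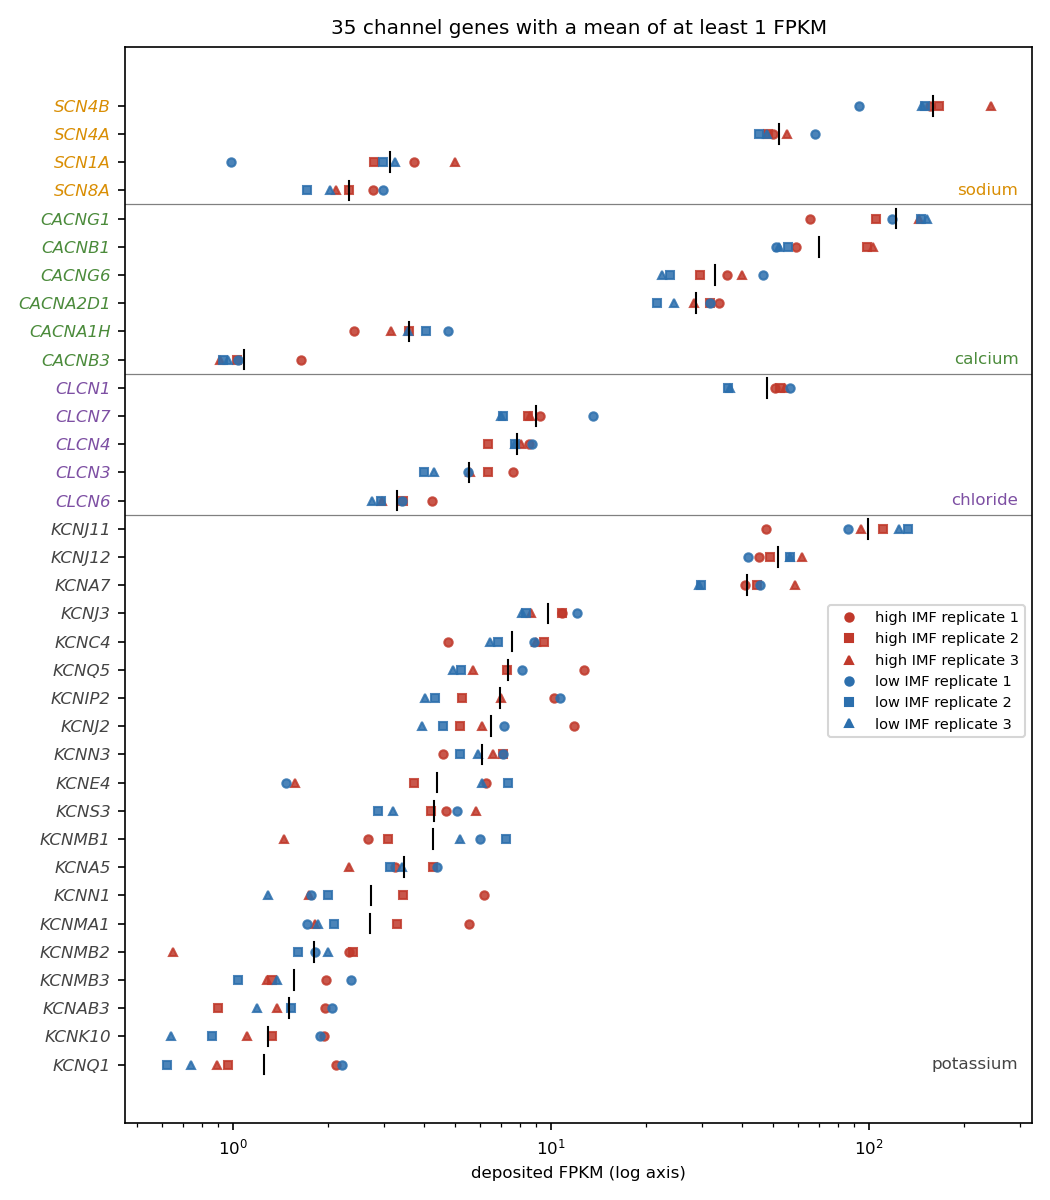
Deposited FPKM (log axis) of 35 channel genes with a mean of at least 1 FPKM, grouped by ion and ordered by mean (black bar), with 1 point for each library coloured by IMF group. Levels run from 159 FPKM for SCN4B down to about 1, the points of both groups mostly lie over each other, and KCNMB1 is a gene whose 3 low IMF points all lie above its 3 high IMF points.

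Genes that lie next to each other in the RefSeq gene order (assembly EquAss-T2T_v2, used for order only) could differ widely in level. CACNG1 had 122 FPKM, while CACNG4 and CACNG5, which follow it, had 0.425 and 0.840. SCN4B had 159 FPKM beside SCN2B at 0.208, and CACNG6 had 33.0 beside CACNG8 at 0.0133 and CACNG7 at 0.0233. Of the row of potassium channel genes KCNA6, KCNA1 and KCNA5, the last had 3.46 FPKM and the other two 0.127 and 0.0483. In the row SCN1A, SCN9A and SCN7A the levels were 3.12, 0.155 and 0.272 FPKM, and SCN11A and SCN10A, which adjoin each other, both had under 0.1.

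The 2 groups were compared to ask which transcripts differ with fat content. The abundant channels of the muscle fibre overlapped between the groups, and the channel gene with the smallest p was KCNMB1, the beta subunit of the large-conductance calcium-activated potassium (BK) channel, known from smooth muscle. Its level was 7.51 ± 1.56 CPM (SD, n = 3) in low IMF muscle and 2.59 ± 0.642 in high IMF muscle. Others with an unadjusted p under 0.05 in edgeR's quasi-likelihood test were KCNJ15, KCNAB2, KCNK6, KCNN1 and CLCN3, which were higher in high IMF muscle, and KCNH2 and CACNA1H, which were lower. None of these passed adjustment over all genes.

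The low-count filter kept 83 of the 130 genes, and 0 of the 83 had an edgeR adjusted p under 0.05, with a smallest value of 0.504. Over all 15933 genes tested the share was 0% (0 genes). At an unadjusted p under 0.05, 5 of the 83 channel genes (6.02%) were higher in high IMF muscle, where the share of all genes was 4.53%. A further 4 (4.82%) were lower, against 2.74% of all genes. The 3 high and 3 low IMF libraries did not overlap for 4 genes that were higher (4.82%, against 6.86% of all genes) and 4 that were lower (4.82%, against 6.1%). Scaling by library size alone gave 7 higher and 2 lower in place of 5 and 4. By DESeq2's Wald test, 1 of the 94 channel genes with an adjusted p was called, KCNMB1 (1.06%, against 1.16% of all genes), and limma-voom called 0. In the authors' deposited table KCNMB1 was also the only channel gene with an adjusted p under 0.05, at 0.000967, where 1.15% of all genes had one.

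The direction of the folds was near even. The log2 fold of high over low IMF was positive for 45 of the 83 genes (54.2%) and for 51.2% of all genes, and its median was 0.08 against 0.01. The size of the fold was larger, with a median of 0.36 on the log2 scale without regard to sign, against 0.22 for all genes, and 12 of 83 (14.5%) differed by more than 2-fold, against 8.35%. The 47 genes that the filter left out had at most 45 reads in any library, the highest being KCNA1 in high IMF replicate 1. They include the neuronal potassium channel genes KCNQ3 and KCNC2, the cardiac KCNE1, KCNE2 and KCND3, and KCNN4, the calcium-activated channel of red and immune cells, which had 2 to 4 reads in every library.

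**Figure D2:**
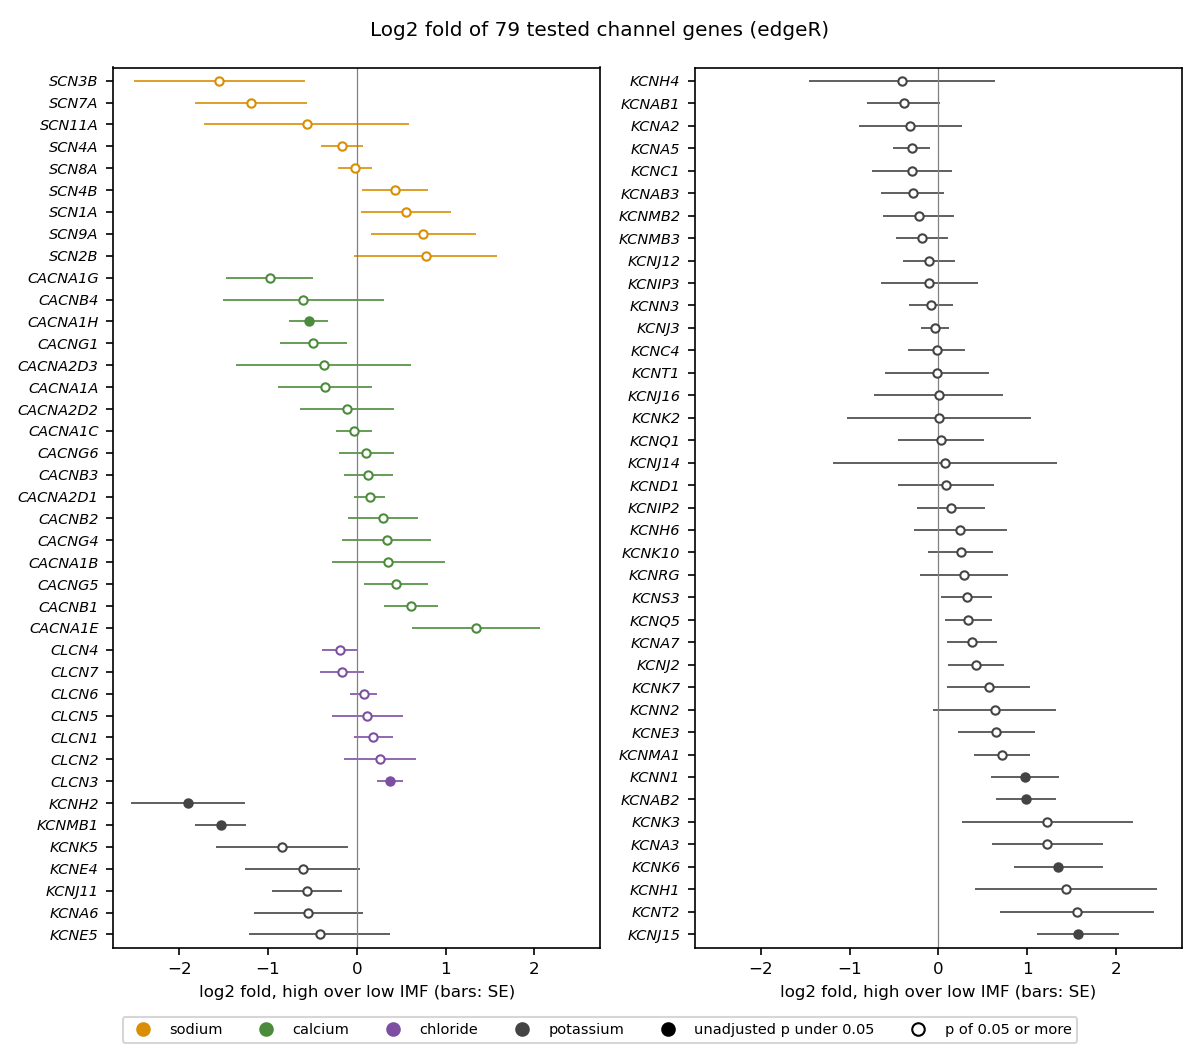
Log2 fold of high over low IMF with its standard error (edgeR) for 79 tested channel genes, ordered within each ion; filled points have an unadjusted p under 0.05. The 8 filled points lie on both sides of 0, and the 6 largest differences in size among them belong to KCNH2, KCNJ15, KCNMB1, KCNK6, KCNAB2 and KCNN1, all potassium channel genes.

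In the values below, libraries are given in the order of replicates 1, 2 and 3, and CPM used library totals after trimmed-mean (TMM) normalisation. Among the sodium channels 0 of 11 tested genes had an unadjusted p under 0.05, and the median log2 fold was -0.02. Over all genes tested, 4.53% were higher and 2.74% lower at that threshold. SCN4A had 350, 347 and 508 CPM in high and 529, 403 and 416 in low IMF muscle. The groups overlapped, with the highest value in low IMF replicate 1. SCN4B had 595, 649 and 1210 CPM in high and 395, 731 and 698 in low IMF muscle. This beta subunit was highest in high IMF replicate 3, the library with the highest fast fibre level (0.87). It was lowest in low IMF replicate 1, where that level was 0.04, and not in high IMF replicate 1, where it was -1.94. The part of fibre type in the SCN4B value was not tested.

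The minor sodium channel pores varied more between libraries. SCN1A, better known from neurons, had 26.9, 20.6 and 47.2 CPM in high and 7.94, 27.4 and 29.2 in low IMF muscle, so that low IMF replicate 1 lay far below the other 5 libraries. SCN8A, also a neuronal pore, was even, between 22.2 and 33.5 CPM. SCN7A, an atypical sodium channel of glia and sensory nerve, had 0.618, 1.78 and 0.550 CPM in high and 0.979, 2.81 and 3.01 in low IMF muscle. It is itself a gene of the Schwann cell and nerve list, whose level was lowest in high IMF replicate 1 (-1.80) and next lowest in high IMF replicate 3 (-0.20). The part of those cells in the value was not tested. SCN3B, a beta subunit of nerve, had 0.353, 2.03 and 0.0579 CPM in high and 2.17, 2.35 and 2.75 in low IMF muscle. These groups did not overlap, although high IMF replicate 2 lay close to the low IMF libraries (log2 fold -1.55, SE 0.96, edgeR adjusted p = 0.836). Leaving out high IMF replicate 2 gave a log2 fold of -3.51, and leaving out high IMF replicate 3 gave -1.02.

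Among the calcium channels 1 of 17 tested genes had an unadjusted p under 0.05 and the median log2 fold was 0.11. The shares of all genes tested at that threshold were 4.53% higher and 2.74% lower. CACNA1H, a low-voltage-activated (T-type) pore, had 15.1, 23.0 and 25.9 CPM in high and 33.1, 32.4 and 27.6 in low IMF muscle. The groups did not overlap, with a narrow gap between high IMF replicate 3 and low IMF replicate 3, and the log2 fold was -0.54 (SE 0.22, edgeR adjusted p = 0.673). CACNA1G, the other T-type pore with more than a few reads, had 2.43, 4.37 and 1.27 CPM in high and 3.29, 7.27 and 5.47 in low IMF muscle, and its groups overlapped (edgeR adjusted p = 0.752). CACNA1C, the pore of the cardiac and smooth muscle channel, was level across libraries at 6.80 to 9.45 CPM.

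The subunits that accompany the muscle calcium channel pore did not share a direction. CACNB1 had 106, 181 and 242 CPM in high and 102, 127 and 117 in low IMF muscle. High IMF replicates 2 and 3 lay above every low IMF library and high IMF replicate 1 lay among them (log2 fold 0.61, SE 0.30, edgeR adjusted p = 0.748). CACNG1, which lowers the current through the channel, had 80.8, 135 and 235 CPM in high and 164, 232 and 235 in low IMF muscle, so that only high IMF replicates 1 and 2 lay below the low IMF libraries. CACNA2D1, the subunit that brings the channel to the membrane, was even at 181 to 242 CPM, and CACNG6 ran from 78.7 to 148 CPM with its highest values in high IMF replicate 3 and low IMF replicate 1.

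All 7 chloride channel genes were tested, 1 had an unadjusted p under 0.05, and the median log2 fold was 0.12. The shares of all genes tested at that threshold were 4.53% higher and 2.74% lower. CLCN3, an endosomal chloride/proton exchanger, had 41.0, 35.2 and 39.3 CPM in high and 32.9, 27.4 and 28.8 in low IMF muscle. The groups did not overlap, with a log2 fold of 0.37 (SE 0.15, edgeR adjusted p = 0.643). CLCN1 had 177, 189 and 249 CPM in high and 220, 161 and 159 in low IMF muscle, and its groups overlapped. CLCN7, the lysosomal exchanger, had 33.4 to 58.2 CPM with its highest value in low IMF replicate 1. CLCN4 and CLCN6, exchangers of endosomes, were among the most even of the channel genes, at 44.9 to 72.9 and 16.8 to 20.7 CPM.

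Of the 48 potassium channel genes tested, 7 had an unadjusted p under 0.05, 4 of them with higher and 3 with lower levels in high IMF muscle, where 4.53% and 2.74% of all genes tested had such a p in these directions. The median log2 fold was 0.02. The abundant inward rectifiers overlapped. KCNJ11 had 124, 299 and 323 CPM in high and 250, 445 and 404 in low IMF muscle, with high IMF replicate 1 lowest of all (log2 fold -0.56, SE 0.39, edgeR adjusted p = 0.867). KCNJ12 had 222 to 398 CPM and KCNJ3, a G-protein-gated rectifier, 38.0 to 50.9. KCNJ2, the classical rectifier of muscle and vessels, had 81.9, 36.9 and 55.1 CPM in high and 54.9, 40.5 and 33.9 in low IMF muscle. KCNJ15, a rectifier known from kidney, had 0.928, 0.844 and 1.10 CPM in high and 0.208, 0.339 and 0.413 in low IMF muscle. Every high IMF library lay above 0.8 and every low IMF library below 0.42, with a log2 fold of 1.57 (SE 0.46, edgeR adjusted p = 0.525). The log2 fold stayed at 1.32 to 1.79, and its unadjusted p under 0.05, when each library was left out in turn.

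KCNK6 belongs to the tandem-pore-domain channels, which carry background potassium current. It had 1.15, 1.29 and 0.521 CPM in high and 0.313, 0.412 and 0.438 in low IMF muscle, without overlap but with high IMF replicate 3 close to the low IMF libraries (log2 fold 1.35, SE 0.50, edgeR adjusted p = 0.633). The most abundant of this class, KCNK10, reached 1.29 ± 0.531 FPKM, and its 12.7 and 11.7 CPM in low and high IMF replicate 1 were its highest values. KCNK7, which is not known to form a working channel alone, had 0.389 to 0.881 CPM and its groups overlapped.

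The abundant voltage-gated potassium pores overlapped. KCNA7 had 130, 147 and 246 CPM in high and 163, 122 and 117 in low IMF muscle, and KCNC4, a fast-inactivating channel, had 40.4 CPM in high IMF replicate 1 and 68.8 to 101 in the other libraries. KCNH2, the channel of the rapid delayed rectifier current of the heart, had 1.04, 0.656 and 0.579 CPM in high and 0.771, 3.59 and 4.18 in low IMF muscle, so that low IMF replicates 2 and 3 stood above the other 4 libraries and low IMF replicate 1 lay with the high IMF group (log2 fold -1.90, SE 0.64, edgeR adjusted p = 0.590). KCNQ5, a channel of a slow potassium current, had 17.4 to 36.0 CPM, with overlap. KCNQ1, a relative of it, had 32.8 and 38.4 CPM in high and low IMF replicate 1 and 12.4 to 18.2 in the other 4 libraries, the same libraries in which the slow fibre list was highest (0.75 and 0.43).

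**Figure D3:**
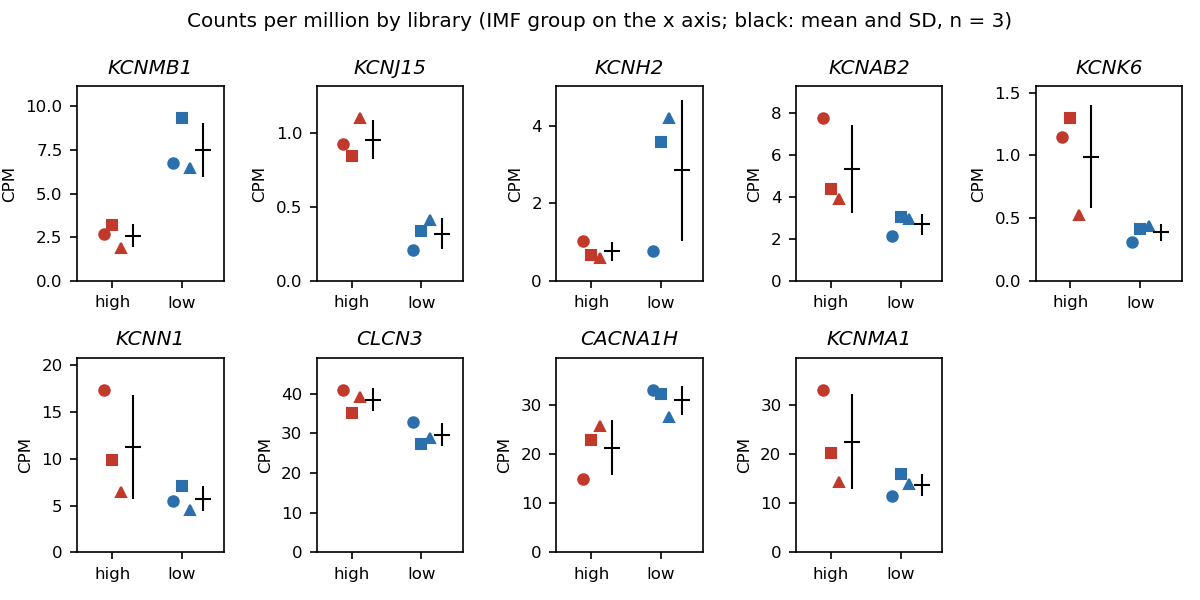
CPM of each library for 8 channel genes with an unadjusted edgeR p under 0.05 and for KCNMA1, with the mean and SD of each group (n = 3) in black. The groups are separate for KCNMB1, KCNJ15, KCNAB2, KCNK6, CLCN3 and CACNA1H and overlap for KCNH2, KCNN1 and KCNMA1.

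The auxiliary subunits of voltage-gated potassium channels included 1 besides KCNMB1, described below, with an unadjusted p under 0.05. KCNAB2, a cytoplasmic beta subunit with a reductase fold, had 7.73, 4.37 and 3.91 CPM in high and 2.13, 3.03 and 2.94 in low IMF muscle. The groups did not overlap, and high IMF replicate 1 was far above the rest (log2 fold 0.98, SE 0.34, edgeR adjusted p = 0.599). Without that library the groups would still be apart, at 3.91 and 4.37 against 2.13 to 3.03 CPM. Leaving out each library in turn gave log2 folds of 0.60 to 1.16, with an unadjusted edgeR p of up to 0.0863. KCNIP2, a calcium sensor that binds A-type channels, had 89.0, 47.2 and 79.7 CPM in high and 104, 48.1 and 43.7 in low IMF muscle. KCNE4, a single-pass subunit that inhibits several potassium channels, had 12.1, 7.41 and 4.0 CPM in high and 3.17, 18.2 and 14.6 in low IMF muscle, and KCNE3, linked to channels of muscle and gut, 0.688 to 2.16. All 3 overlapped between the groups.

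The small-conductance calcium-activated channels were led by KCNN3, at 79.6, 126 and 150 CPM in high and 137, 114 and 127 in low IMF muscle. KCNN1 had 17.3, 9.90 and 6.43 CPM in high and 5.50, 7.13 and 4.52 in low IMF muscle (log2 fold 0.97, SE 0.38, edgeR adjusted p = 0.642). Its groups overlapped and its value rested on high IMF replicate 1, without which the log2 fold was 0.51 and the unadjusted p over 0.05. KCNN2 was also highest in that library, at 3.56 CPM against 0.542 to 1.87 in the other 5.

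In the BK channel the pore and the beta subunit had log2 folds of opposite sign. KCNMB1 had 2.67, 3.19 and 1.91 CPM in high and 6.73, 9.31 and 6.49 in low IMF muscle. Every low IMF library had more than 2 times the level of every high IMF library, with a log2 fold of -1.53 (SE 0.29, edgeR adjusted p = 0.504). DESeq2's Wald test gave an adjusted p of 0.000964, and the authors' deposited table a log2 fold of -1.54 with the gene marked as down. Leaving out each library in turn kept the edgeR log2 fold at -1.72 to -1.35, while the DESeq2 call was lost without low IMF replicate 2 (adjusted p = 0.0695) and held in the other 5 such runs (0.00127 to 0.0133).

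KCNMA1, which forms the pore of the BK channel, had 33.0, 20.3 and 14.2 CPM in high and 11.4, 15.9 and 13.8 in low IMF muscle. Its groups overlapped through high IMF replicate 3 (log2 fold 0.71, SE 0.31, edgeR adjusted p = 0.702), and its highest value was in high IMF replicate 1. Leaving out each library in turn gave log2 folds of 0.32 to 0.95, with an unadjusted edgeR p of up to 0.236. The other BK beta subunits overlapped too, with KCNMB2 at 1.94 to 5.64 CPM, KCNMB3 at 6.79 to 13.5 and KCNMB4 at 2 to 15 reads. LRRC52, an auxiliary protein of BK channels outside the symbol rule, had 0.596, 0.281 and 0.290 CPM in high and 0.0417, 0.0485 and 0 in low IMF muscle. Its 3 low IMF values lay under the limit that a count of 0 allows.

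Within a library, the FPKM of KCNMB1 divided by that of KCNMA1 was 0.482, 0.936 and 0.801 in high and 3.50, 3.48 and 2.79 in low IMF muscle. Transcripts of the pore were the more abundant in all 3 high IMF libraries and those of the beta subunit in all 3 low IMF libraries. The means were 0.740 ± 0.233 and 3.26 ± 0.401 (SD, n = 3), a ratio of 4.40. The two-sided exact permutation p was 0.1, the smallest that 3 against 3 libraries allow, and 0.471 after adjustment over 11 subunit ratios, which were chosen after counts had been seen. CACNG1 over CACNB1 was the other ratio whose groups did not overlap, at 1.10, 1.07 and 1.40 in high and 2.31, 2.63 and 2.90 in low IMF muscle (means 1.19 ± 0.182 and 2.62 ± 0.296, exact permutation p = 0.1). Unlike the separate values of these genes, this ratio in high IMF replicate 1 did not stand apart from the other high IMF libraries. The other 9 ratios overlapped, among them SCN4B over SCN4A at 1.37 to 4.37, KCNJ11 over ABCC9, its regulatory subunit, at 2.41 to 6.31, and CLCN7 over OSTM1, its partner in lysosomes, at 1.85 to 4.67.

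**Figure D4:**
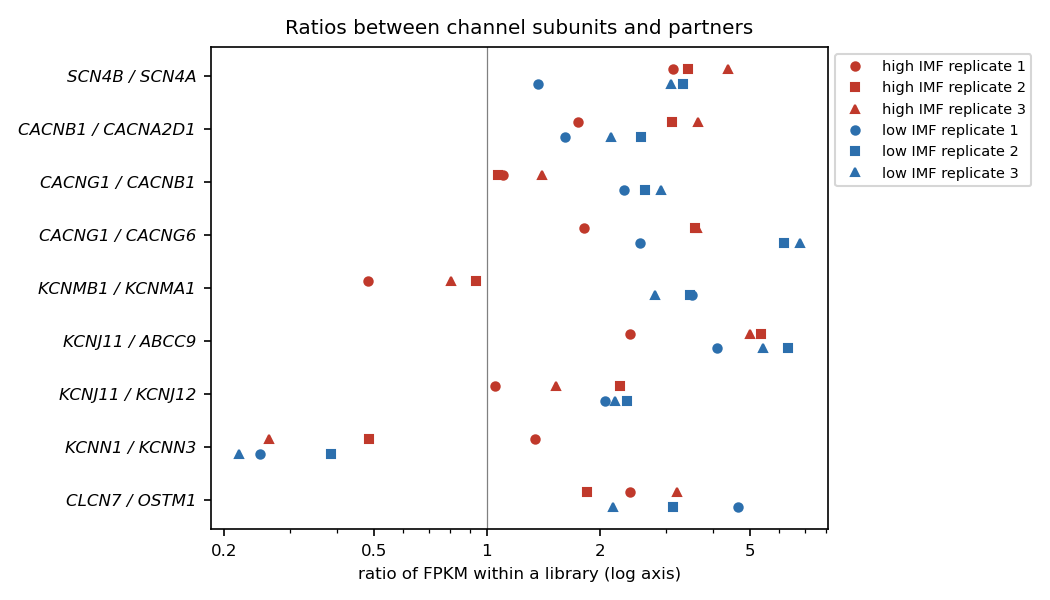
Ratio of the deposited FPKM of 9 pairs of channel subunits or partners within each library (log axis), with 1 point a library. KCNMB1 over KCNMA1 lies below 1 in the high IMF libraries and above 2.7 in the low IMF libraries, CACNG1 over CACNB1 lies at 1.07 to 1.40 and 2.31 to 2.90, and the other pairs overlap.

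Markers of smooth muscle, in which KCNMB1 is best known, had log2 folds of both signs, and the list level overlapped between the groups. The list of 13 smooth muscle and pericyte genes had 5 positive and 8 negative log2 folds (median -0.36), and its level was -0.12, 0.03 and -0.44 in high and -0.30, 0.32 and 0.13 in low IMF muscle. The summed level of the list was 4275 to 5020 FPKM in high and 3863 to 5268 in low IMF muscle, and 0 of its genes were at 0. MYH11, smooth muscle myosin, and CNN1, calponin, were named after their values were seen, from the genes with negative log2 folds. The 5 genes with positive log2 folds are not shown. MYH11 had 41.1, 89.3 and 25.5 CPM in high and 85.7, 317 and 253 in low IMF muscle. CNN1 had 10.4, 28.7 and 16.7 CPM in high and 7.92, 81.0 and 70.6 in low IMF muscle. Both were highest in low IMF replicates 2 and 3, whereas low IMF replicate 1, with KCNMB1 at 6.73 CPM, had the lowest CNN1 of all libraries. The part of smooth muscle in the KCNMB1 value was not tested beyond these values.

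The list of endothelial markers covers the lining of blood vessels. Of its 12 genes, all tested, 1 had a positive and 11 had a negative log2 fold (median -0.47). An unadjusted p under 0.05 was found for 4 with lower and 0 with higher levels in high IMF muscle, beside 2.74% and 4.53% of all genes tested, and edgeR called 0 after adjustment. The level of the list was 0.07, -0.16 and -0.68 in high and 0.37, 0.22 and 0.16 in low IMF muscle, so that the groups did not overlap. Its summed level was 177 to 316 FPKM in high and 284 to 346 in low IMF muscle, and 0 of its genes were at 0. FLT1, a receptor for vascular endothelial growth factor, was the 1 gene of the list that DESeq2 called, and is named after its values were seen. It had 64.2, 66.0 and 46.6 CPM in high and 122, 118 and 129 in low IMF muscle (log2 fold -1.06, SE 0.18, edgeR adjusted p = 0.415, DESeq2 adjusted p = 0.000663), and the DESeq2 call held when each library was left out in turn (adjusted p up to 0.0453). The part of vessels in the KCNMB1 value was not tested.

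Immune and connective tissue markers were higher in high IMF muscle in part of the libraries. All 12 fibroblast genes had positive log2 folds, as had 11 of 12 macrophage and 9 of 11 lymphocyte genes, with medians of 0.87, 1.33 and 1.46. The fibroblast level was 1.17, 0.91 and -1.40 in high and -0.94, -0.11 and 0.18 in low IMF muscle, and the macrophage level 1.77, 0.52 and -0.76 against -0.51, -0.41 and -0.40. In both, high IMF replicate 3 was the lowest library. The lymphocyte level was 1.52, 0.44 and 0.23 in high and 0.45, -0.98 and -1.15 in low IMF muscle, with low IMF replicate 3 lowest. KCNA3, the potassium channel of lymphocytes and macrophages, had 0.530, 0.731 and 0.261 CPM in high and 0.167, 0.145 and 0.340 in low IMF muscle. KCNAB2 and KCNN1 shared with the macrophage list their order of libraries within the high IMF group, whereas KCNJ15 and CLCN3 were higher in high IMF replicate 3 than in replicate 2. The part of these cells in the channel values was not tested.

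**Figure D5:**
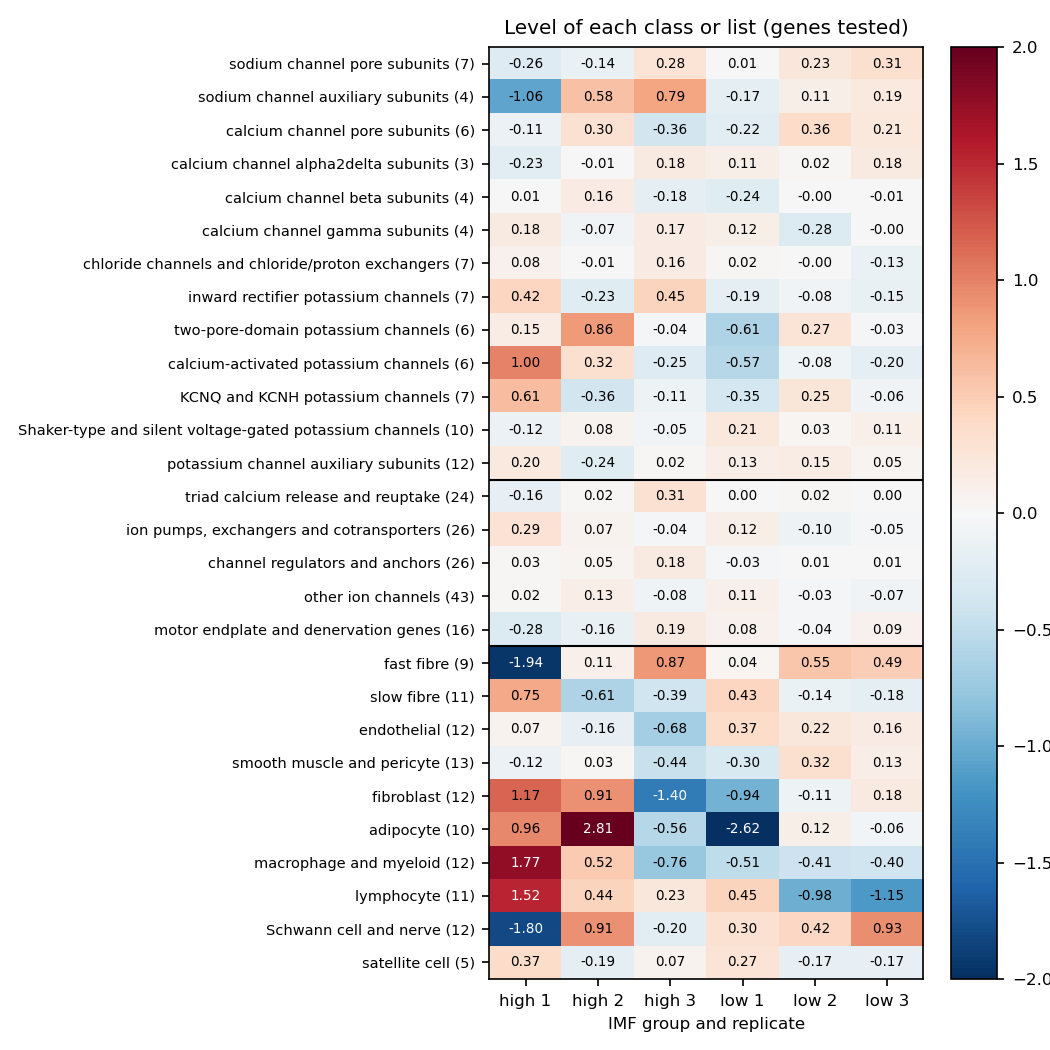
Level of each channel class, partner list and cell type list in each library, as the median over tested genes (number in brackets) of log2 CPM relative to the mean of each gene. Most channel classes stay within about 0.6 of 0, whereas the cell type lists reach -1.94 (fast fibre, high IMF replicate 1) and 2.81 (fat cells, high IMF replicate 2).

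By class, the level of the sodium channel auxiliary subunits was lowest in high IMF replicate 1 (-1.06, against -0.17 to 0.79 elsewhere). That of the calcium-activated potassium channels was highest there (1.0, against -0.57 to 0.32). These were the widest departures of any channel class, in the library in which the fast fibre level was -1.94 and the nerve level -1.80. Each median weighs genes of few and many reads alike. SCN3B and SCN2B had 16 and 8 reads there, and SCN4B, at 595 CPM, lay within the low IMF range of 395 to 731. KCNN3, the most abundant calcium-activated gene, was lowest in that library, at 79.6 CPM, whereas KCNN1, KCNN2 and KCNMA1 were highest there. The part of fibre type or nerve in these levels was not tested. The chloride channels stayed within -0.13 to 0.16 in every library and the calcium channel beta subunits within -0.24 to 0.16.

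Genes that work with the channels were read from the same edgeR test, in which 0 of them passed adjustment. Of 26 tested regulators and anchors, an unadjusted p under 0.05 was found for 4 with higher and 0 with lower levels in high IMF muscle, beside 4.53% and 2.74% of all genes tested. RRAD, a small GTPase that binds calcium channel beta subunits and inhibits the L-type current, had 1090, 451 and 502 CPM in high and 229, 191 and 196 in low IMF muscle. Every high IMF library lay at more than 1.9 times every low IMF library (log2 fold 1.73, SE 0.37, edgeR adjusted p = 0.504, DESeq2 adjusted p = 0.000826). SGK1, a kinase that raises the surface level of sodium and potassium channels, had 42.9, 40.8 and 36.9 CPM in high and 12.4, 18.3 and 23.1 in low IMF muscle (log2 fold 1.17, SE 0.24, edgeR adjusted p = 0.504, DESeq2 adjusted p = 0.0110). STAC2, an adaptor of calcium channels, and LRRC52 were the others. LRRC52, with 27, 15 and 10 reads in high and 2, 2 and 0 in low IMF muscle, passed the low-count filter only through the high IMF libraries. Its direction was thus fixed by the filter, and it gives no weight to the count of 4. The DESeq2 call of RRAD held when each library was left out in turn (adjusted p up to 0.0489), and that of SGK1 was lost without high IMF replicate 2 (0.114) or low IMF replicate 2 (0.137).

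Of 26 pumps, exchangers and cotransporters, 1 reached that threshold with a higher level and 0 with a lower one. The shares of all genes tested were 4.53% and 2.74%. SLC4A4, a sodium bicarbonate cotransporter, had 10.2, 10.8 and 13.1 CPM in high and 4.75, 5.89 and 6.34 in low IMF muscle (log2 fold 1.01, SE 0.21, edgeR adjusted p = 0.504). Its DESeq2 adjusted p of 0.0165 rose above 0.05 without high IMF replicate 2 (0.105), low IMF replicate 2 (0.151) or low IMF replicate 3 (0.0681). FXYD1, phospholemman, the regulator of the sodium pump, had 215, 275 and 355 CPM in high and 442, 377 and 357 in low IMF muscle, which left the groups separate by a narrow margin (edgeR adjusted p = 0.750).

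Of 24 genes of the triad, where tubule and reticulum meet, 0 had an unadjusted p under 0.05, and the median log2 fold was 0.07. Over all genes tested, 4.53% were higher and 2.74% lower at that threshold. RYR1, the release channel, had 2728 to 5348 CPM in high and 3534 to 5405 in low IMF muscle. RYR3, its minor relative, had 40.7 CPM in high IMF replicate 1 and 1.04 to 3.54 in the other 5 libraries. Among 43 other ion channels, 0 were higher and 2 lower at that threshold, beside 4.53% and 2.74% of all genes tested. MCOLN1, a lysosomal cation channel, had 26.1, 23.3 and 28.5 CPM in high and 34.7, 39.6 and 36.0 in low IMF muscle, and BEST3, of the bestrophin family, 44.8, 20.2 and 35.4 against 65.5, 58.0 and 65.0. Of 16 endplate and denervation genes, 1 was higher and 1 lower, beside the same 4.53% and 2.74% of all genes tested. CHRNE, the adult acetylcholine receptor subunit, had 19.1, 22.3 and 22.8 CPM in high and 82.7, 28.0 and 33.3 in low IMF muscle, and COLQ, which anchors acetylcholinesterase, had 15.6 CPM in high IMF replicate 1 against 0.630 to 1.65 in the other libraries.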

How the data were processed

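Counts of reads per gene were deposited by the authors as whole numbers. Reads were aligned with HISAT2, per the submitters' processing notes, which list the mouse build mm9 although the gene names are those of donkey and horse. The genome used, the counter, its strand setting and its treatment of reads shared between similar genes are not stated in any label or header used here, so channel genes of similar sequence are uncertain to that extent. FPKM, and a comparison with a ratio (fold change), its log2 value, a p-value and an adjusted p-value, were also deposited by the authors; they entered no test. No coordinates or sequences are given. The sample labels and the design text name different sequencers, and no batch is given, so none could be examined.

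Genes were tested with edgeR 4.0.16 (quasi-likelihood F-test, TMM, filterByExpr defaults, R 4.3.3) over 15933 genes holding 99.96% of reads, with Benjamini-Hochberg adjustment at 0.05. The script recovered known folds on simulated data, where every gene had the same relative spread and only genes above a minimum read count were changed. That run checks the script and does not show that such folds could be found in these libraries. CPM used TMM-adjusted library sizes, and list levels used log2 of CPM plus 0.01. DESeq2 1.42.0, limma-voom (limma 3.58.1), other scalings and filters, the replicate block, each library left out and low IMF replicates 2 and 3 summed were alternatives. DESeq2 without each library, or with those replicates summed, was chosen after seeing the data.

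Members, classes, lists and tests were chosen with earlier results of these data known. Named channel genes are the 2 of highest FPKM in each class, those of smallest p with at least 0.5 CPM and separate groups, a fixed set known in muscle and the 3 of largest variation among genes of at least 1 CPM; partner genes are the 3 of smallest p in each list. Other genes were chosen after their values were seen. Same-numbered libraries of the groups were not paired in the main test. Their deviations correlated at 0.184, 0.139 and 0.0126, and those of differently numbered libraries at -0.213 to 0.199. These values do not decide whether the libraries were paired. Some channel genes are not reported here, though they stay in the tests, counts and shares.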

Additional observations from a re-analysis of the deposited data

How the results depend on the processing

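Of 35 named channel genes, 24 kept their direction in every setting tried and 11 did not. Scaling by library size alone took the median log2 fold from 0.01 to 0.15 over all genes and to 0.21 over the channel genes, gave 2 genes lower at an unadjusted p under 0.05, and 7 higher and 1 lower with separate groups. It also turned the log2 fold of CACNA1C to 0.13, KCNJ12 to 0.011, KCNN3 to 0.014 and KCNC4 to 0.072. A stricter low-count filter, with 57 channel genes tested, gave 3 higher at that threshold and 2 higher with separate groups. DESeq2 called 194 of all genes and 1 channel gene. With the replicate number as a block, 3 channel genes were higher at an unadjusted p under 0.05, 4 were lower and 0 were called; no other call changed. With low IMF replicates 2 and 3 summed, 2 were higher and 1 lower, 8 were higher with separate groups, and CACNG6 (-0.038) and KCNIP2 (-0.061) turned.

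Without each library in turn, edgeR called 0 to 3 of all genes (3 without high IMF replicate 1) and 0 channel genes. The channel genes at an unadjusted p under 0.05 then numbered 2 to 9 higher (9 without high IMF replicate 3) and 1 to 6 lower (1 without low IMF replicate 3), and those with separate groups 5 to 14 higher and 5 to 13 lower, where fewer libraries make separation easier. For these counts, and the like counts of the other settings above, the share of all genes was not taken. They therefore do not show whether channel genes differ from other genes. Their median log2 fold ran from -0.00278 to 0.093. DESeq2 called 0 to 3 channel genes, adding among others CACNB1 without high IMF replicate 1, SCN3B without high IMF replicate 2, KCNN1 without high IMF replicate 3 and KCNH2 without low IMF replicate 1, and called 1, KCNMB1, with low IMF replicates 2 and 3 summed. Over all genes it called 301 of 17379 without high IMF replicate 1 (channel genes 3 of 97) and 130 of 17731 without replicate 2 (2 of 99). Without high IMF replicate 3 it called 635 of 16716 (2 of 91). Leaving out low IMF replicates 1, 2 and 3 gave 424 of 17450 (2 of 98), 63 of 15903 (0 of 85) and 79 of 15900 (1 of 83). The summed run gave 72 of 16822 (1 of 93). The log2 fold changed sign for CACNB3 (-0.093 to 0.24), KCNJ12 (-0.41 to 0.038), KCNN3 (-0.30 to 0.12), KCNC4 (-0.30 to 0.26), KCNIP2 (-0.082 to 0.64), KCNN2 (-0.27 to 1.11), CACNA2D3 (-1.64 to 0.026), CACNA1C (-0.17 to 0.078), CACNG6 (-0.15 to 0.42), CLCN7 (-0.31 to 0.13) and KCNK10 (-0.017 to 0.73). In the edgeR runs without each library, the unadjusted p of CACNA1H, CLCN3 and KCNK6 reached 0.108, 0.154 and 0.116. That of KCNAB2 and KCNH2 reached 0.0863 and 0.0736. The cause of these changes was not tested. Depth limits the 47 untested genes, which had at most 45 reads in a library.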

Other observations

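Which library held the extreme value of a channel gene varied. Of the 83 tested genes, low IMF replicate 1 had the lowest value for 22 (26.5%, against 21.1% of all genes tested) and high IMF replicate 2 for 5 (6.02%, against 14.6%). High IMF replicate 3 had the highest value for 19 (22.9%, against 22.3%). The near-identical low IMF replicates 2 and 3 held the highest value for 9 and 10 genes.

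KCNJ8, the vascular pore of the ATP-sensitive potassium channel, which the symbol rule leaves out, had 19.3, 16.6 and 13.3 CPM in high and 9.94, 8.89 and 9.60 in low IMF muscle. Its log2 fold was 0.79 (SE 0.19), and it was not called (edgeR adjusted p = 0.510, DESeq2 adjusted p = 0.0774). KCNJ11, its fibre counterpart, had its groups overlap, with a log2 fold of -0.56.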
